A study of Mus musculus with 4 samples.

Results

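The genes described here are Nfe2l2, which encodes the transcription factor NRF2, Keap1, which encodes the protein that holds it in check, and 7 classical NRF2 target genes, Nqo1, Hmox1, Gclm, Srxn1, Txnrd1, Ephx1 and Ugdh. Members were taken by gene symbol, with every probe set that the platform annotation assigns to 1 of these symbols alone. This gave all 9 genes of 18193 measured and 17 probe sets of 45037. Their level was read in liver RNA on Affymetrix Mouse Genome 430 2.0 arrays, on which a probe set is a group of short probes read as 1 value. The study asked which liver genes change when the liver lacks BAF60a, the Smarcd1 product, which belongs to the chromatin remodeller SWI/SNF, in the setting of bile acid metabolism and cholesterol absorption.

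Wild-type (WT) mice were compared with Baf60a liver-specific knockout (Baf60a LKO) mice, both on the C57BL/6 background. All mice, the controls included, ate a high-fat diet for 10 weeks from 6 weeks of age, and livers were taken after an overnight fast, so no group shows the genes on another diet or in the fed state. Each group had 2 arrays, each with an independent pool of liver RNA. The number and sex of the mice in a pool and the promoter that drives the deletion are not given in the sources used here. P-values therefore reflect the spread between pools. In the test used, limma, the spread of a gene's own pools is blended with that of all genes. The errors and intervals given below are thus set partly by the other genes.

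NRF2 is held in the cytoplasm by KEAP1, which hands it to a CUL3 ubiquitin ligase for destruction. Oxidants and electrophiles modify cysteines of KEAP1, NRF2 then escapes, pairs with a small MAF protein and binds the antioxidant response element in the promoters and enhancers of its targets. In liver these targets make glutathione, reduce quinones and oxidised proteins, break down haem and supply enzymes of drug detoxification. Much of NRF2's control lies at the level of protein stability, which an expression array does not read.

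The core letters of the antioxidant response element, TGACNNNGC on either strand, were looked for in RefSeq promoter windows of GRCm38.p6, which run from 250 bases before to 50 bases after an annotated start. The table held windows for 8 of the 9 members, 10 windows in all, and none for Hmox1. The letters occurred in 5 of the 10 windows, those of Nfe2l2, Gclm, Srxn1 and Ugdh and 1 of the 3 of Txnrd1, with 6 matches. Of all 32851 windows of 300 bases, 12.4% held them. The windows around the matches are shown because they are the letters by which this group of genes is known, each 5′ to 3′ on the strand of its gene, with the matched letters in capitals.
Nfe2l2, chr2:75704870-75704913, minus strand, 232 bases before the start: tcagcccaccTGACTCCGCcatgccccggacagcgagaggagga
Gclm, chr3:122245398-122245456, plus strand, 126 bases before the start: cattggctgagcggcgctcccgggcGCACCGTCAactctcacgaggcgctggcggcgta
Txnrd1, chr10:82859089-82859147, plus strand, 84 bases before the start: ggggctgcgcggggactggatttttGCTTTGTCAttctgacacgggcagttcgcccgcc
Ugdh, chr5:65435903-65435999, minus strand, 124 and 86 bases before the start: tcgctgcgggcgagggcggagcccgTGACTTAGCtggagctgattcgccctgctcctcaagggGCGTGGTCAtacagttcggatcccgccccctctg
Srxn1, chr2:152105542-152105570, plus strand, 28 bases after the start: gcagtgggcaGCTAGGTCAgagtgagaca
The Nfe2l2 match and the first Ugdh match read in the direction of the gene, and the others on the opposite strand. None of the 6 holds the AP-1 letters TGACTCA, which overlap the searched core in some response elements. The windows of Keap1, Nqo1 and Ephx1 held no match, which says only that these letters are not in those windows. A match is a description of the letters and not a bound site.

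The arrays were alike in their medians, 4.19 to 4.27 on the log2 scale, but WT replicate 1 stood apart. Its correlation with the other arrays over probe sets was 0.987 to 0.991, against 0.993 to 0.996 among the other 3, and its values were less spread, with a standard deviation of 2.32 against 2.41 to 2.42. Of the brighter 50% of genes, in which all 9 members fall, 73.3% read lower in WT replicate 1 than in WT replicate 2, against 51.3% of all genes. The control probe sets for the 3′ and 5′ ends of the actin and Gapdh transcripts differed by 0.72 to 0.76 and by -0.02 to 0.07 on the 4 arrays, with WT replicate 1 at 0.74 and 0.07, so this measure of RNA integrity hardly varied. Hepatocyte markers were high, as the labelled tissue requires, with a mean of 12.2 to 12.3 over 8 genes on each array. The control probe sets for bacterial transcripts, a gauge of background, had 95th percentiles of 2.63 to 2.86. All member probe sets stood above that range in every array, the dimmest being 1 of Txnrd1 at 3.03 to 3.42. Smarcd1 itself read 5.62 and 5.88 in the WT pools and 5.34 and 5.30 in the knockout pools, and it is not known whether its probe set lies in the deleted part, so it does not check the genotype.

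No member passed the test between genotypes. Of the 9 genes, 0 had an adjusted p under 0.05 by limma with Benjamini-Hochberg adjustment over all genes, and 0 had an unadjusted p under 0.05, beside 0.484% and 10.2% of all genes. The same held for the 17 probe sets, 0 past the threshold and 0 at an unadjusted p under 0.05, where 0.187% and 8.17% of all probe sets were. The lowest adjusted p was 0.503, for Nfe2l2. Differences are given as Baf60a LKO minus WT on the log2 scale with their standard error in that fit, 2 arrays per group. A gene's value is that of its brightest probe set. Higher readings in Baf60a LKO were found for 7 of the 9 members (6 after renormalization by quantiles and 5 after cyclic loess) and lower ones for Nqo1 and Ugdh, with a median of 0.12. Of the brighter 50% of genes 66.6% read higher, with a median of 0.08, and of all genes 50.1%. After quantiles and after cyclic loess, 50.7% and 48.9% of the brighter 50% read higher, and the member median was 0.04 and 0.03. In 4 members the 2 groups did not overlap, 3 higher and 1 lower in Baf60a LKO, while 22.8% of all genes lay wholly higher and 19.6% wholly lower, so such separation is common on these arrays. Among the brighter 50% of genes, 34.1% lay wholly higher and 14.4% wholly lower.

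**Figure D1:**
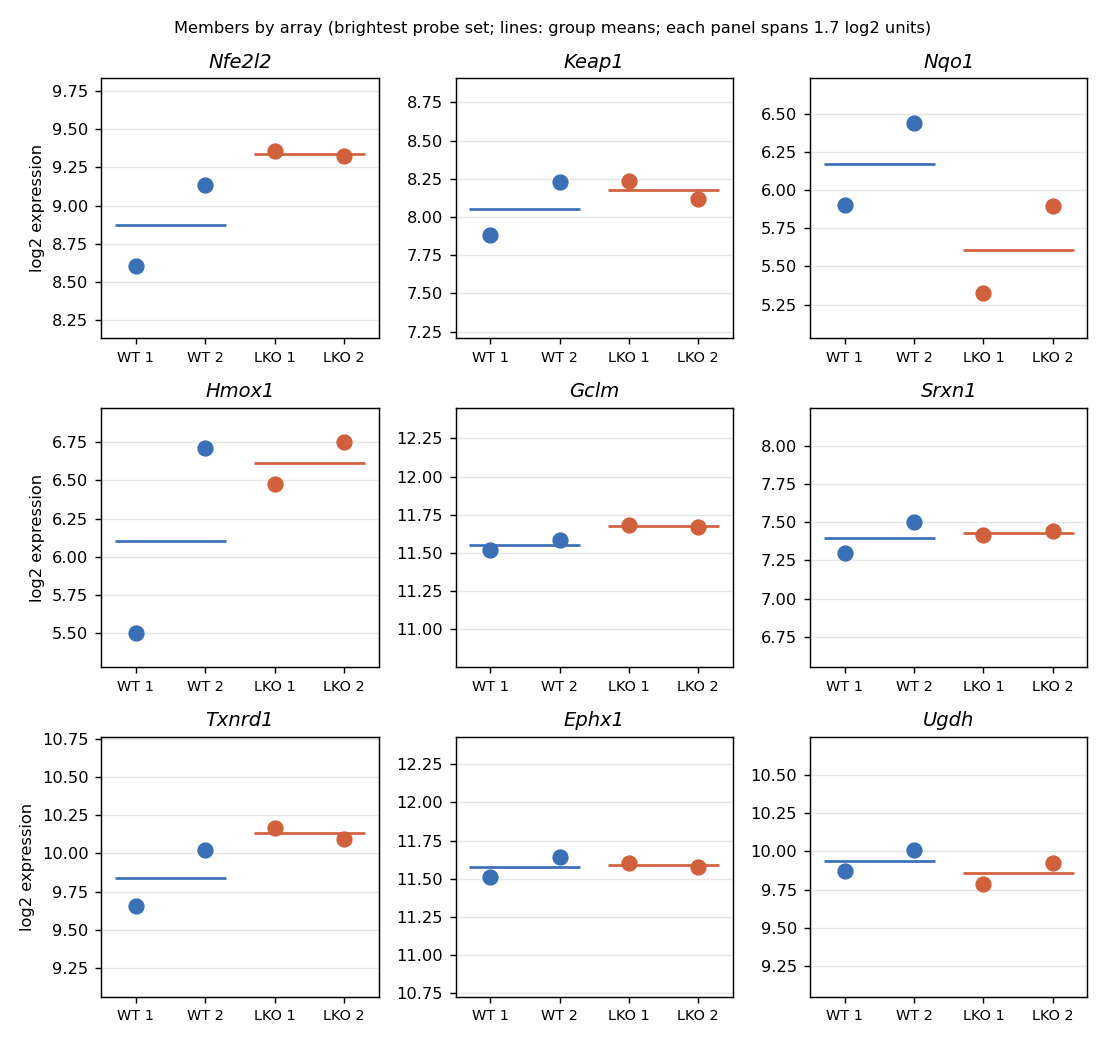
Level of each of the 9 genes on the 4 arrays, as log2 expression of its brightest probe set, with blue points for WT pools, orange points for Baf60a LKO pools and lines at the group means; each panel spans the same number of log2 units but is centred on its own gene, so heights are not comparable between panels. WT 1 reads below WT 2 in all 9 panels, by 0.06 for Gclm to 1.21 for Hmox1.

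Nfe2l2 read higher in both Baf60a LKO pools than in both WT pools. Its brighter probe set read 8.61 and 9.14 in the WT pools and 9.36 and 9.32 in the knockout pools. The other, dimmer one read 5.35 and 5.93 in the WT pools and 5.96 and 6.24 in the knockout pools. Both probe sets thus separate the groups, though on each the higher WT pool lies close to the lower Baf60a LKO pool. The difference was 0.47 ± 0.19, or 1.38-fold, with a 95% interval of -0.02 to 0.95 (limma, adjusted p = 0.503), and 0.46 ± 0.22 on the dimmer probe set. Without WT replicate 1 these differences were 0.20 and 0.17, and without WT replicate 2 they were 0.73 and 0.75.

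Keap1, the gene of the cysteine-rich sensor that marks NRF2 for destruction, did not separate the groups on its brighter probe set. That probe set read 7.88 and 8.23 in the WT pools and 8.23 and 8.12 in the knockout pools. The second one read 6.81 and 6.80 in the WT pools and 6.78 and 6.69 in the knockout pools, slightly lower in both knockout pools. The differences were 0.12 ± 0.16 and -0.07 ± 0.12, opposite in sign and each smaller than its error. The 95% interval of the first, -0.27 to 0.51, reaches up to 1.43-fold. Without WT replicate 1 it was -0.05.

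Among the targets, Nqo1 had the largest difference of the 9, and it was downward. NQO1 is a quinone reductase whose transcript is widely used as a readout of NRF2 activity. Its single probe set read 5.90 and 6.44 in the WT pools and 5.32 and 5.89 in the knockout pools. Both knockout pools read lower, but the gap between the groups, from 5.90 to 5.89, is small beside the gaps of 0.54 and 0.57 between pools of 1 genotype. The difference was -0.56 ± 0.26, a 1.47-fold lower level, with a 95% interval of -1.21 to 0.09 (limma, adjusted p = 0.533). It depended on the pools, at -0.85 when Baf60a LKO replicate 2 was left out, -0.27 when Baf60a LKO replicate 1 was, and -0.83 and -0.29 when WT replicate 1 and WT replicate 2 were. The sign could not turn in these, because the groups did not overlap. Of all genes, 4.04% had a larger difference in either direction.

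Over the 4 arrays, the 3 genes of the brighter 50% whose centred values lay closest to those of Nqo1 were Mme, Upp2 and 1810046K07Rik. Their root mean square distances were 0.0879, 0.0944 and 0.0989 on the log2 scale, among 9097 genes searched. With 4 arrays such likeness is a description. Mme, which encodes the membrane peptidase neprilysin, read 7.47 and 7.92 in the WT pools and 6.68 and 7.25 in the knockout pools. None of the 3 passed the test, with adjusted p of 0.389 to 0.599 by limma.

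Hmox1, the inducible haem oxygenase that opens haem to biliverdin, iron and carbon monoxide, varied most of the 9 members between the WT pools. It read 5.50 and 6.71 in the WT pools and 6.48 and 6.75 in the knockout pools. A single pool, WT replicate 1, was low, and WT replicate 2 lay among the knockout pools. The difference of 0.51 ± 0.39 had a 95% interval of -0.46 to 1.48 (limma, adjusted p = 0.670), was -0.10 without WT replicate 1 and was 1.11 without WT replicate 2. Hmox1 is abundant in Kupffer cells, the macrophages of the liver, and their markers moved with it between the WT pools. All 13 measured Kupffer cell and macrophage markers read lower in WT replicate 1 than in WT replicate 2, as did all 9 members. Of the brighter 50% of genes, 73.3% did. The mean log2 level of the 13 markers was 8.38 and 8.78 in the WT pools and 8.70 and 8.64 in the Baf60a LKO pools. None was near background. From Baf60a LKO replicate 1 to replicate 2 this mean fell slightly while Hmox1 rose. Of the 13, 0 passed between genotypes and 1 had an unadjusted p under 0.05 (limma), beside 0.484% and 10.2% of all genes. That 1 was the scavenger receptor gene Cd163, picked with its values in view. The part of these markers in the Hmox1 values was not tested. In whole liver, fewer cells of a type and less RNA per cell cannot be told apart.

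Gclm, the modifier subunit of glutamate-cysteine ligase, the enzyme of the first step of glutathione synthesis, had a difference about as large as its error in the limma fit. It read 11.52 and 11.58 in the WT pools and 11.68 and 11.67 in the knockout pools, with gaps of only 0.06 and 0.01 within the groups. The knockout pools were both higher, by 0.13 ± 0.11, a difference of 1.09-fold with a 95% interval of -0.16 to 0.41. A second, dimmer probe set read 8.76 and 9.12 in the WT pools and 9.08 and 9.09 in the knockout pools, where the groups overlap. Gclc, the catalytic subunit of the same enzyme, picked with its values in view, differed by -0.05 ± 0.13.

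Srxn1 and Txnrd1 act on oxidised protein thiols. Sulfiredoxin, the Srxn1 product, repairs overoxidised peroxiredoxins. Its brightest probe set read 7.30 and 7.50 in the WT pools and 7.42 and 7.44 in the knockout pools, with the knockout pools between the WT pools. The difference was 0.03 ± 0.13 (-0.068 after quantiles, -0.066 after cyclic loess), and 2 of its dimmer probe sets also gave 0.03 on the deposited values. The remaining one, which read 6.60 and 6.65 in the WT pools and 6.41 and 6.49 in the knockout pools, gave -0.17 ± 0.12. The 95% interval of the brightest, -0.29 to 0.35, corresponds to 0.820 to 1.27 of the WT level.

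Txnrd1 encodes the cytosolic thioredoxin reductase, a selenoprotein that keeps thioredoxin reduced. On its brightest probe set it read 9.66 and 10.02 in the WT pools and 10.17 and 10.10 in the knockout pools. Both knockout pools were higher there, by 0.29 ± 0.16 (limma, adjusted p = 0.567). The dimmer probe sets did not share this. One read 5.12 and 4.85 in the WT pools and 5.08 and 4.86 in the knockout pools, a difference of -0.02 ± 0.16. The dimmest, whose name ends in _x_at and which may bind other transcripts, read 3.42 and 3.15 in the WT pools and 3.04 and 3.03 in the knockout pools, a difference of -0.26 ± 0.14. The mean of the 3 differed by 0.0071. Which transcript forms each probe set reads is not given in the files. Without WT replicate 1 the brightest gave 0.11 and without WT replicate 2 it gave 0.47.

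**Figure D2:**
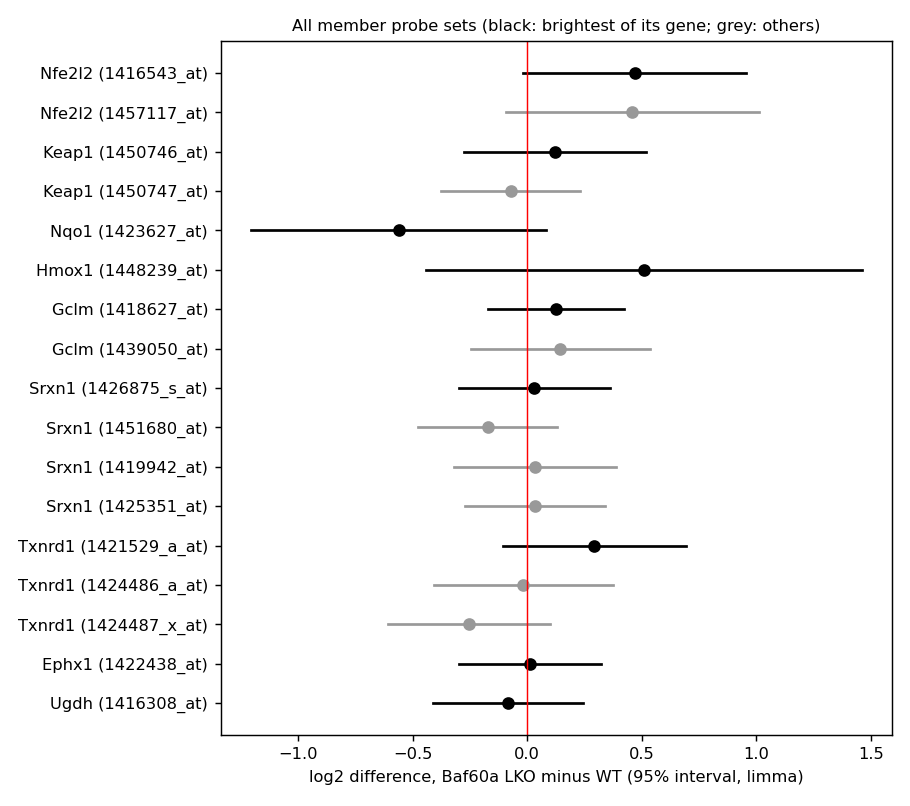
Difference of each of the 17 member probe sets, Baf60a LKO minus WT on the log2 scale, with its 95% interval from limma; black marks the brightest probe set of a gene and grey the others. Every interval includes 0, and the 2 Nfe2l2 probe sets, at 0.47 and 0.46, lie close to each other while those of Txnrd1 range from -0.26 to 0.29.

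Ephx1 and Ugdh serve drug metabolism. EPHX1 is the microsomal epoxide hydrolase, and UGDH makes UDP-glucuronate, the sugar donor of glucuronidation. Ephx1 read 11.51 and 11.64 in the WT pools and 11.61 and 11.57 in the knockout pools, a difference of 0.01 ± 0.12 (-0.019 after cyclic loess). Ugdh read 9.87 and 10.01 in the WT pools and 9.79 and 9.92 in the knockout pools, a difference of -0.08 ± 0.13. In both genes the groups overlap, and the 95% intervals, -0.28 to 0.31 and -0.40 to 0.23, reach down to 0.821 and 0.758 of the WT level and up to 1.24-fold and 1.17-fold.

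Both genes are also known to respond to CAR, the xenobiotic receptor encoded by Nr1i3, whose transcript fell from 11.2 to 6.46 in these livers. Their values can be set beside those of 21 other measured genes under the control of CAR or of PXR, a related receptor. Of those, 16 read lower, and 5 fell and 0 rose past the threshold, beside 0.247% and 0.236% of all genes. An unadjusted p under 0.05 (limma) was found for 11, beside 10.2% of all genes, and the median was -0.76. No gene of this list passed without WT replicate 1 or without WT replicate 2, 3 passed without Baf60a LKO replicate 1, and the median was then -0.46, -0.55 and -0.41. The mean level of Slco1a4, which encodes an uptake transporter of organic anions, fell from 8.25 to 4.50 (log2 difference -3.75 ± 0.15, limma adjusted p = 0.00145). Of the P450 genes, Cyp2c50 fell by 3.79 on the log2 scale, and Cyp2c54 and Cyp2c37 fell as well, with differences of -3.68 and -3.66, though probes may be shared among these paralogs. Abcc3, a basolateral exporter that is also an NRF2 target, fell by 1.02, but did not pass with a replicate block (limma, adjusted p = 0.147), which left 4 calls in this list. Cyp2b9 had the largest difference, -4.34 ± 0.68, and did not pass. Whether Ephx1 and Ugdh differ from these genes was not tested. The lists were not independent of the earlier results on these arrays.

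The other genes of the pathway were read from fixed lists with the 9 members left out. Among 19 partners and regulators of NRF2, 14 read higher and 5 lower, with a median of 0.12. Of the 19, 0 passed and 0 had an unadjusted p under 0.05 (limma), beside 0.484% and 10.2% of all genes. The small MAF gene Mafk differed by -0.32 ± 0.13. Mafg, another small MAF gene, and Cul3, the scaffold of the ligase that KEAP1 serves, both picked with their values in view, differed by 0.20 ± 0.12 and 0.23 ± 0.17. Brca1, whose product can bind NRF2, had the largest difference, 0.61 ± 0.34, from a level of 3.25 and 4.28 in WT, with overlapping groups. Without WT replicate 1, 9 of the 19 read higher and the median was -0.0028.

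Among 11 genes of glutathione synthesis and recycling, 6 read higher and 5 lower, with a median of 0.04. Of the 11, 0 passed and 3 had an unadjusted p under 0.05 (limma), beside 0.484% and 10.2% of all genes. Chac1, a glutathione-degrading enzyme, differed by -0.85 ± 0.16 and Ggct, a gamma-glutamylcyclotransferase, by 0.79 ± 0.22. In Chac1 the WT pools read 7.49 and 7.12 and the knockout pools 6.50 and 6.40. In Ggct the WT pools read 6.48 and 7.11 and the knockout pools 7.58 and 7.58.

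In the thioredoxin and peroxiredoxin list 10 of 15 read higher, with a median of 0.03. Of the 15, 0 passed and 3 had an unadjusted p under 0.05 (limma), beside 0.484% and 10.2% of all genes. The mitochondrial thioredoxin reductase Txnrd2 read 8.13 and 8.08 in the WT pools and 8.69 and 8.48 in the knockout pools, a difference of 0.48 ± 0.13. Prdx4, the peroxiredoxin of the endoplasmic reticulum, differed by 0.47 ± 0.16. Neither passed, and the groups did not overlap in either. In this list 8 of the 15 genes lay wholly higher and 2 wholly lower in Baf60a LKO, beside 22.8% and 19.6% of all genes. Of the brighter 50% of genes, which hold 14 of these 15, 34.1% lay wholly higher and 14.4% wholly lower. Other lists were alike in this. Wholly higher were 6 of 11 glutathione, 4 of 7 haem and iron and 5 of 10 UDP-glucuronate genes, and wholly lower 3, 2 and 1. Among 15 genes that remove superoxide and peroxides or repair oxidised methionine, 8 read higher and 7 lower. Here too 0 passed and 3 had an unadjusted p under 0.05 (limma), beside 0.484% and 10.2% of all genes. The median was 0.00056. The methionine sulfoxide reductase Msrb3 differed by 0.57 ± 0.18 and the secreted glutathione peroxidase Gpx3 by 0.52 ± 0.15.

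Conjugation and detoxification genes counted as NRF2 targets were the list with calls apart from the CAR and PXR targets, with which it shares 6 measured genes. Of 29 measured, 12 read higher and 17 lower, 2 fell, 0 rose and 27 did not pass, and the list median of -0.06 lay between -0.10 and -0.02 when single arrays were left out. Of all genes, 0.247% fell and 0.236% rose. Of the 29, 9 had an unadjusted p under 0.05 (limma), beside 10.2% of all genes. Ces1g, a carboxylesterase, fell from 9.83 and 9.91 in WT to 7.03 and 7.78 in Baf60a LKO (log2 difference -2.46 ± 0.25, 5.51-fold, limma adjusted p = 0.0321). Abcc3, the other, stood at 11.5 in both WT pools and at 10.4 and 10.5 in Baf60a LKO (log2 difference -1.02 ± 0.12, limma adjusted p = 0.0444). Neither passed with a replicate block, where adjusted p was 0.0753 and 0.147, and none of the 29 passed when either WT replicate or Baf60a LKO replicate 1 was left out, and 1 passed when Baf60a LKO replicate 2 was. Of the list, Gsta2, a glutathione transferase of the alpha class, differed by -1.48 ± 0.26 with adjusted p = 0.142, and its probes may also read its paralogs.

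The remaining lists were short and held no calls, and their counts at an unadjusted p under 0.05 (limma) stand beside 10.2% of all genes. Among 7 NADPH-supplying genes 4 read higher, 1 had an unadjusted p under 0.05 (limma), and the malic enzyme gene Me1 differed by -0.42 ± 0.12 and the transhydrogenase gene Nnt by 0.23 ± 0.19. Among 7 genes of haem and iron handling 5 read higher, 1 had an unadjusted p under 0.05, and Blvrb, which reduces biliverdin and flavins, differed by -0.35 ± 0.12, while the constitutive haem oxygenase Hmox2 differed by 0.15 ± 0.11. Among 10 genes of the UDP-glucuronate pathway 6 read higher, 0 had an unadjusted p under 0.05, and the transporter gene Slc35d2 differed by -0.31 ± 0.14 and the phosphoglucomutase gene Pgm2 by 0.28 ± 0.15.

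**Figure D3:**
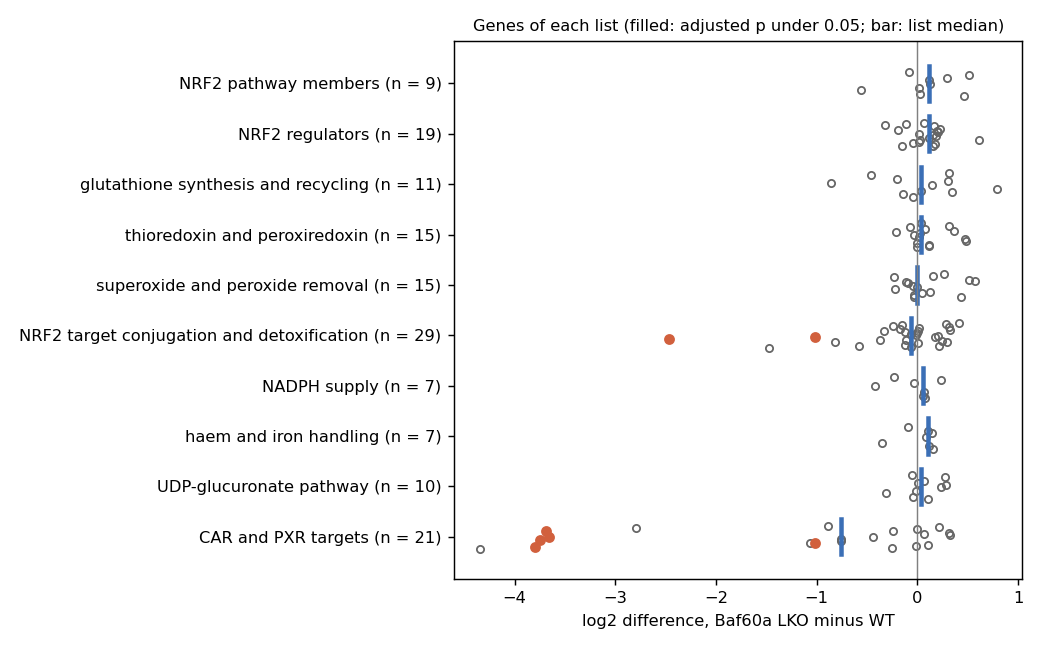
Log2 difference, Baf60a LKO minus WT, of each measured gene of the 9 members and of the other lists, with the members left out of those; filled points passed by limma and the bar is the list median. The members lie between -0.56 and 0.51, and the filled points are all below 0.

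Of the 7 higher readings in Baf60a LKO, 4 turned lower without WT replicate 1, while the lower ones of Nqo1 and Ugdh were larger without it, at -0.83 and -0.15. With that array left out, 3 of the 9 members read higher in Baf60a LKO in place of 7, namely Nfe2l2, Gclm and Txnrd1, and the median was -0.05. The brighter 50% of genes went from 66.6% to 53.4% higher at the same time. With WT replicate 2 left out, 7 read higher and the median was 0.16, while 71.8% of the brighter 50% of genes read higher. As gene values, Nfe2l2, Gclm and Txnrd1 read higher and Nqo1 and Ugdh lower in Baf60a LKO under every setting tried. In all of these but Ugdh the groups did not overlap, so leaving out 1 array could not turn the sign.

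**Figure D4:**
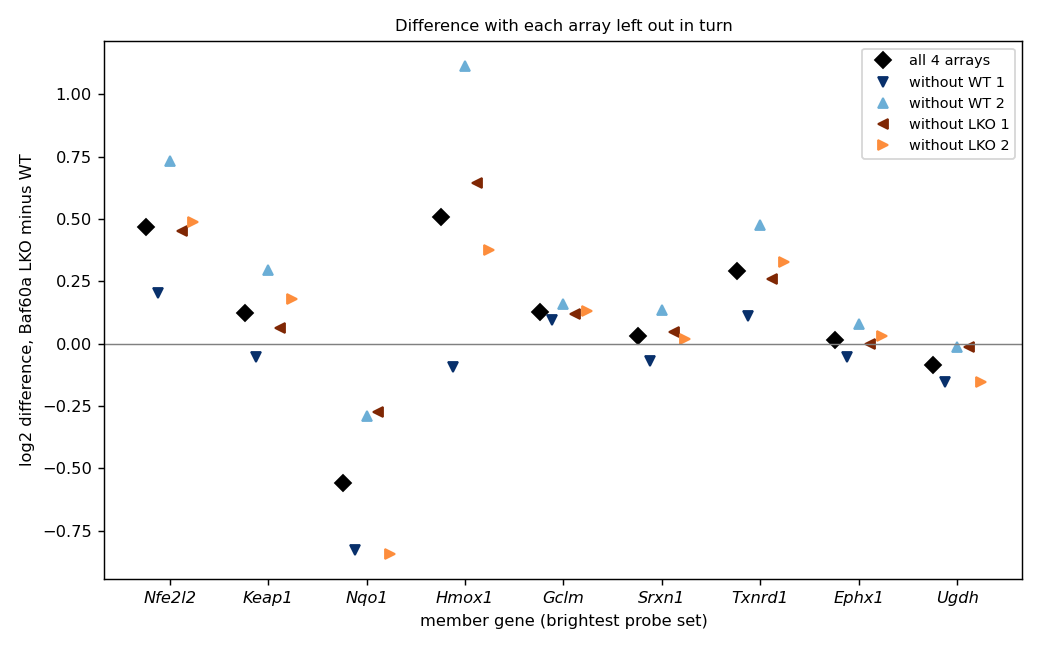
Log2 difference of each of the 9 genes, Baf60a LKO minus WT, with all 4 arrays (black diamonds) and with each array left out in turn. Leaving out WT 1 lowers every value, from 0.51 to -0.10 for Hmox1. Nfe2l2 (0.20 to 0.73), Gclm and Txnrd1 stay above 0, and Nqo1 (-0.85 to -0.27) and Ugdh below 0. In all of these but Ugdh the groups do not overlap, so leaving out 1 array cannot turn the sign.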

How the data were processed

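Liver RNA of WT and Baf60a LKO mice was read on 4 arrays, 2 per group, grouped by the genotype in their titles. Their range shows the deposited values to be log2, and each array has 1 value for each probe set. Per the submitters' processing notes the authors used RMA, which corrects background, normalizes by quantiles and summarises probes, with the packages affy and limma, versions not given. RMA compresses differences at low levels. Arrays hold no read depth, and their number limits the precision.

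The tests used 45037 of the 45101 probe sets, without 64 controls. The platform annotation gave 1 symbol to 34945 probe sets, several to 932 and did not list 9160. Symbols were updated by Entrez number from the RefSeq table of GRCm38.p6, where 34741 matched. Promoter windows come from RefSeq. A gene took the probe set with the highest mean, and no filter on level was applied. The test between genotypes was that of limma 3.58.1 under R 4.3.3, with lmFit, default eBayes, 2-sided p-values, Benjamini-Hochberg adjustment and a threshold of 0.05. It had 2 residual and 3.54 prior degrees of freedom over genes. The scripts were tested on simulated data. Figures used matplotlib 3.10.9 in Python 3.11.15.

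The members and lists were chosen with earlier results of these data known. Named are all members, of each list the genes past the threshold and the 2 with the largest differences, Smarcd1, Nr1i3 and the 3 genes closest to the member with the largest difference; others are marked as picked with their values in view. No marker list held a call. The medians of those not described above were 0.64 for 5 neutrophil, -0.09 for 8 endothelial, 0.45 for 7 cholangiocyte, -0.13 for 8 stellate, -0.23 for 4 adipocyte and -0.03 for 4 erythroid markers. In this order 1, 0, 4, 1, 0 and 1 had an unadjusted p under 0.05 (limma), beside 10.2% of all genes. All 7 cholangiocyte markers read higher, and all 8 stellate and 4 adipocyte markers lower. At or below the background gauge on every array were 1 cholangiocyte, 2 adipocyte and 1 erythroid marker. Alternatives were other normalizations, the brighter 50%, averaged probe sets, no _x_at or _s_at probe sets, the replicate number as a block, eBayes with trend and robust settings, and leaving out each array.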

Additional observations from a re-analysis of the deposited data

How the results depend on the processing

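No member gene and no member probe set passed the threshold under any setting tried. Nfe2l2 and Nqo1 had an unadjusted p under 0.05 (limma) after quantiles and after cyclic loess, beside 2032 and 2060 of all 18193 genes. Nfe2l2 did with array medians subtracted and with a trended and robust eBayes, beside 1826 and 2040 genes. Nqo1 did with the replicate block, beside 1956 genes. Over all genes 88 passed, and 142 after cyclic loess, 154 with array medians subtracted, 216 with a trended and robust eBayes, 19 with the replicate block and 0 to 17 with 1 array left out. Of 128 other pathway genes 6 passed, 13 with a trended and robust eBayes and 0 to 6 with 1 array left out. The replicate block left the counts of members past the threshold at 0. The numbers are not known to pair the pools, and the differences between replicates correlated at 0.15 over probe sets between the groups. Leaving out an array leaves a lone pool, whose spread is taken from the other group.

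Signs turned for several differences that had not passed, among them that of Hmox1, 0.51 with all arrays. Srxn1 was at -0.068 after quantiles, -0.066 after cyclic loess, -0.019 with averaged probe sets and -0.17 without _x_at or _s_at probe sets. Ephx1 was at -0.019 after cyclic loess. The third of the Srxn1 probe sets by level was at -0.029 after quantiles and -0.024 after cyclic loess, and the Txnrd1 probe set of middle level at 0.016 with array medians subtracted. With 1 array left out, Keap1 ran from -0.053 to 0.29, Hmox1 from -0.096 to 1.11, Srxn1 from -0.069 to 0.13, Ephx1 from -0.053 to 0.079 and the dimmer Gclm probe set from -0.031 to 0.32. The third Srxn1 probe set ran from -0.086 to 0.15, the dimmest from -0.017 to 0.082, and the middle Txnrd1 probe set from -0.15 to 0.12. The lowest values, or for Txnrd1 the highest, came without WT replicate 1, except for the third Srxn1 probe set. The cause was not tested.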
